A study of Mus musculus with 120 samples.

Results

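The genes described here encode the proteins of the cytosolic large (60S) ribosomal subunit. They were taken by symbol alone: Rpl followed by a number and an optional a, or Rplp0, Rplp1 and Rplp2, which leaves out pseudogenes and symbols of like paralogs. The rule found 46 of the 23481 gene symbols in the count table, with 93883 counts in 120 libraries. Rpl36al falls outside the rule.

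The libraries came from bone-marrow-derived macrophages (BMDM) of male C57BL/6 mice aged 12 weeks, with wild-type marrow. All cells, controls included, had been transduced with a transcription factor reporter virus and replated in multiwell plates, and the labels do not say how many mice gave marrow. At each of the time labels 0, 1 and 4 (T0, T1 and T4, with no unit given) there were 12 control libraries. The other groups held 2 libraries for each halofuginone dose (2.4, 9.7, 39, 156, 625, 2500 and 10000 nM), without proline or with 2 mM proline. The series design puts small molecules before lipopolysaccharide (LPS), and T1 and T4 are taken here as later than LPS, although no label says which libraries received it. How long T0 cells had been in halofuginone is not stated, and controls carry no proline label. The labels do not state whether replicates came from separate cultures or animals, and p-values then reflect the spread among libraries alone, which may be technical.

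The large subunit joins amino acids and holds the tunnel through which the new chain leaves, while its stalk proteins recruit the elongation factors. The mRNAs of its proteins are among the most abundant in growing cells and share a tract of pyrimidines at their 5′ end, the TOP motif, through which their translation follows nutrient and growth signals. Halofuginone occupies the proline site of the glutamyl-prolyl-tRNA synthetase, so that uncharged proline tRNA can build up and free proline competes with the drug. LPS is the bacterial signal that macrophages sense through Toll-like receptor 4.

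All 46 genes were found in the GENCODE M21 annotation of GRCm38 (mm10), on 17 chromosomes, with Rpl10, Rpl36a and Rpl39 on X. Their coding regions hold 25 codons (Rpl41) to 419 codons (Rpl4), and 20 genes carry at least 1 annotated small nucleolar RNA gene within their bounds. The RefSeq start table (GRCm38.p6) held 34 of the 46. Windows from 15 bases before to 15 bases from the start are shown for genes that set themselves apart from the other members under halofuginone. Capitals mark the longest run of C and T in each window, while a TOP tract itself begins at the first base of the mRNA.
Rpl4, chr9:64173372-64173401, plus strand: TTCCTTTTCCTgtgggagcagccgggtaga
Rpl5, chr5:107900513-107900542, plus strand: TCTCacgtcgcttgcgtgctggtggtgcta
Rpl35a, chr16:33056467-33056496, plus strand, 1 of 3 annotated starts: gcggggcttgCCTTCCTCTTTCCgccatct
Rpl39, chrX:37085208-37085237, minus strand: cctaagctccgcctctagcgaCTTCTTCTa
Rpl37a, chr1:72711245-72711274, plus strand: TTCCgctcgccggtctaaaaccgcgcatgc
Rpl41, chr10:128549154-128549183, minus strand: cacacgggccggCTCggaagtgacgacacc
A run of at least 8 pyrimidines lay in 18 of 40 member windows (45.0%) against 12.0% of the 32851 windows of the whole table. On the other strand the shares were 7.5% and 13.2%. Rpl4, Rpl35a and Rpl39 have such a run in the windows shown. Counted from the RefSeq first base as 1, it starts at -15 in Rpl4, where it ends before that base. It starts at -5 in Rpl35a, where it spans that base, and at 7 in Rpl39. GENCODE places the start of the Rpl4 gene at 64173375, which lies within its run. For the other genes shown, the GENCODE gene start lies outside the window. It is 107900502 for Rpl5, 33056453 for Rpl35a and 72711290 for Rpl37a. On the minus strand it is 37085402 for Rpl39 and 128549305 for Rpl41. Rpl5, Rpl37a and Rpl41 have no such run in the windows shown, which says nothing of starts that other annotations place elsewhere. By these windows, retained and lost members described below occur on both sides. The genes shown were chosen by their change under halofuginone, and a link between that change and the run was not tested.

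The libraries count 3′ ends and are shallow, with totals from 20000 to 114061 counts (median 49515) and 61 to 1793 counts for the 46 members together. Levels below are in CPM, each count scaled to the library's counts that remain after removal of 6 structural RNAs, because Rn45s, the ribosomal precursor RNA, took 27.0 to 71.1% of counts. That share was 60.2 to 67.6% in the libraries at 625 nM and above without proline, against 27.0 to 51.8% in controls, so treated libraries hold fewer mRNA counts. Processed pseudogenes of these genes are numerous and counting rules are not given, so reads may be split between copies. In bulk RNA, fewer cells and less RNA per cell cannot be told apart. The 9 macrophage markers in the table summed to 3540 to 4400 CPM in T0 controls and 3190 to 4890 at high dose, and to 2720 to 4130 and 1690 to 3120 at T4. Erythroid and mast cell markers were at 0 throughout. The 4 neutrophil markers in the table, of which Elane was at 0 everywhere, moved with the drug: 413 to 834 CPM in T0 controls and 0 to 257 at high dose, 366 to 875 and 0 to 314 at T1, and 168 to 745 and 0 to 109 at T4. Their part in the results below was not tested.

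In controls the large-subunit mRNAs took a smaller share of the mRNA counts at T4 than at T0. Together they made up 4.64 ± 0.486% (SD, n = 12) at T0, 4.03 ± 0.446% at T1 and 3.03 ± 0.318% at T4. The T0 range of 3.82 to 5.33% and the T4 range of 2.44 to 3.52% did not overlap. At T1, 4 of 45 tested members fell (all tested genes: 5.23% lower of 708), with Rpl22 lowest (log2 fold change -0.65, SE 0.21, adjusted p = 0.014). Without 1 of 4 control libraries (T0 replicate 10 or 11, T1 replicate 2 or 9) the T1 count was 7 or 8, and it was 0 with no filter on low counts or with TMM factors from every gene.

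At T4, 34 of 45 members fell and none rose (35.9% of all genes lower), with a median of -0.45 against -0.07 over all 708 genes. The count depended on the scaling: 20 members were lower and 1 higher with median-of-ratios scaling, the same numbers with DESeq2, 8 lower and 1 higher with TMM factors from every gene in the table, and 4 lower and 1 higher with no filter on low counts. No member had all 12 T4 libraries below all 12 T0 libraries, which 6.07% of tested genes did. The lowest were Rpl22 (-0.91, SE 0.20, adjusted p = 0.0001), which also binds RNAs outside the ribosome, Rpl3 (-0.90, SE 0.18, adjusted p = 2.35e-05), a core protein near the catalytic centre, and Rpl7a (-0.67, SE 0.18). Rpl24, which sits at the bridge between the subunits, had 0.28 (SE 0.16, adjusted p = 0.119), and it was the only member above 0.
Measured against the members' own sum, 4 members were called at T4 (60.0% of all genes called on that scale), among them Rpl24 higher (0.72) and Rpl22 (-0.48) and Rpl3 (-0.47) lower. The 4 calls dropped to 1 or 2 without T0 control replicate 5, T4 control replicate 2 or T4 control replicate 11.

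Under halofuginone the summed share of the members dropped between 9.7 and 39 nM. At T0 the libraries without proline held 5.34 and 4.64% at 2.4 nM, 4.27 and 3.84% at 9.7 nM, 2.67 and 2.64% at 39 nM and 2.49 and 1.97% at 10000 nM. Both 39 nM libraries thus lay below the lowest control (3.82%). At T1 the step was from 3.60 and 3.38% at 9.7 nM to 1.89 and 2.35% at 39 nM, with controls from 3.13%. At T4 the shares were 2.24 and 2.35% at 9.7 nM, already below every control, 1.22 and 1.099% at 39 nM and 0.89 and 0.80% at 10000 nM. The mean at 10000 nM was 48.0% of the control mean at T0, 43.3% at T1 and 27.8% at T4.

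**Figure D1:**
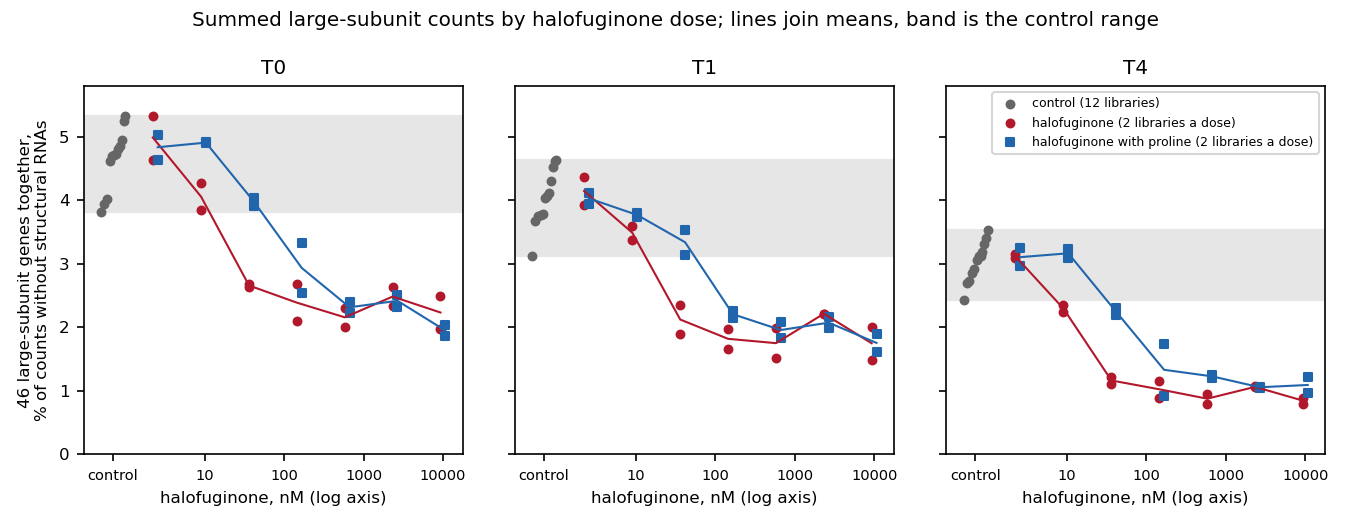
Share of mRNA counts (percent of counts without structural RNAs) held by the 46 large-subunit genes together, by halofuginone dose on a log axis, at T0, T1 and T4. Grey points and band are the 12 controls and their range, red circles are libraries without and blue squares with proline, and lines join the means of 2 libraries; the red line leaves the control band at 39 nM at T0 and T1 and at 9.7 nM at T4, and the blue line leaves it at the next higher dose each time.

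With the 3 highest doses (625, 2500 and 10000 nM, 6 libraries) set against 12 controls in edgeR, 34 of 46 members fell at T0, 35 of 45 at T1 and 42 of 45 at T4. The shares of all tested genes that were lower were 24.3% of 1130, 23.3% of 1066 and 35.4% of 1315. A fit with the replicate number as a block called clearly fewer members at T0 and T1, with the counts given in the closing section. Member medians were -1.08, -1.38 and -2.39 on the log2 scale, against -0.21, -0.21 and -0.23 for all tested genes. At T4, 8 members had no count in at least 1 dose group, which inflates fitted folds, so ratios of pooled levels are given for single genes below (summed counts over summed mRNA counts of the group), and their member median at T4 was -2.07. In 16 members at T0, 10 at T1 and 24 at T4, each treated library lay below each control library, against 5.93, 5.53 and 12.4% of all tested genes. The plot of single genes shows that the order of the members differed between times, with Rpl37a near the bottom and Rpl4 at the top of each.

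**Figure D2:**
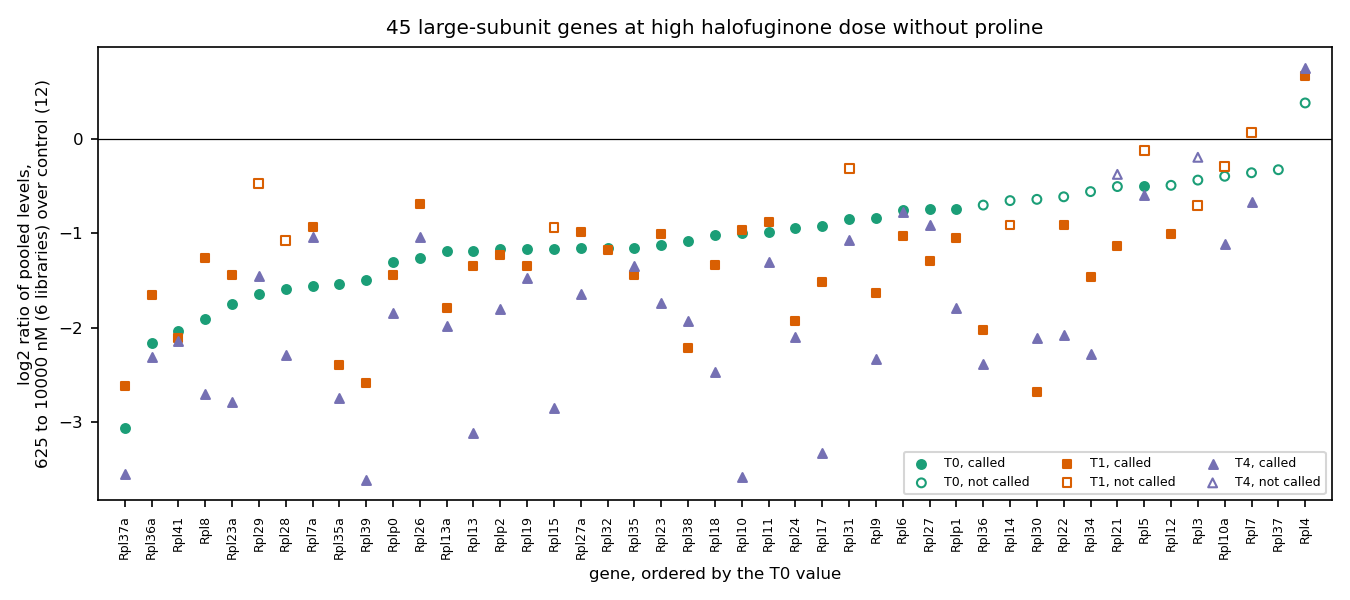
Log2 ratio of pooled levels at 625 to 10000 nM without proline (6 libraries) over controls (12) for 45 large-subunit genes, ordered by the T0 value. Filled symbols were called in edgeR, open ones were not, and genes with 3 or fewer treated counts have no T4 symbol; Rpl37a is among the lowest at all 3 times and Rpl4 alone lies above 0 at all 3.

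The stalk mRNAs Rplp0, Rplp1 and Rplp2 fell at all 3 times. Rplp1 ranged from 1560 to 3610 CPM (median 2140) in 12 T0 controls and from 1120 to 1520 (median 1330) in 6 treated libraries. At T4 the ranges were 977 to 1820 and 92.6 to 701, again with no overlap, and the pooled log2 ratio was -1.79 (edgeR adjusted p = 9.87e-08). At T1 the ranges of 1220 to 2700 and 492 to 2870 overlapped through 1 treated library above the control median. The partner acidic protein gene Rplp2 had -1.17 at T0 and -1.80 at T4, and Rplp0, whose product anchors both to the ribosome, had -1.31 and -1.84, all called. Rpl12, at the stalk base, was not called at T0 (-0.49, adjusted p = 0.0847). At T4 it had 2 counts in 6 treated libraries and 325 in 12 controls, where the members together had 771 and 16032. Its share of the members' counts was thus 0.128 times that of controls (95% counting interval 0.0154 to 0.466).

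Rpl5 and Rpl11 encode the proteins that carry 5S RNA into the subunit and, when free, bind the p53 regulator MDM2. Rpl11 fell at all 3 times (pooled -0.99, -0.88 and -1.31). Rpl5 ran from 918 to 2640 CPM in T0 controls (median 1150) and from 172 to 1500 in treated libraries (median 982), so the groups overlapped widely. Its pooled ratio was -0.50 at T0, -0.12 at T1 and -0.59 at T4, with the calls at T0 and T4 (adjusted p = 0.00968 and 0.0239) lost when the 3 doses were fitted as 1 group (0.0881 and 0.0719). The T0 call was also lost without the second 10000 nM library, and the T4 call without the first 10000 nM library, the first 2500 nM library or control replicate 6. The T1 value was not called.

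The core genes near the catalytic centre spread widely. Rpl8 had pooled ratios of -1.91, -1.27 and -2.70 at T0, T1 and T4, all called. Rpl10, whose product joins the subunit late in its assembly, had 1190 to 2480 CPM in T0 controls and 515 to 1460 in treated libraries, and 716 to 1600 against 0 to 115 at T4. Its pooled ratio went from -1.0 at T0 to -3.59 at T4 (adjusted p = 2.85e-12). Rpl3 was not called at any time (-0.44, -0.71 and -0.19, adjusted p = 0.115, 0.0905 and 0.288).

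Rpl4, whose extension lines the exit tunnel, did not follow the others. Its levels were 730 to 1470 CPM (median 1210) in T0 controls and 1210 to 1720 (median 1530) in treated libraries. They were 655 to 1400 and 819 to 3100 at T1, and 456 to 925 and 695 to 1710 at T4 (medians 674 and 1240). At T4 each of the 6 treated libraries lay above the control median, and at T1 4 of 6 did; the ranges overlapped at all 3 times. The edgeR fold was 0.36 at T0 (adjusted p = 0.153), 0.56 at T1 (0.0471) and 0.63 at T4 (0.0199), and no other member was called higher (all genes higher: 11.3% at T1 and 19.1% at T4). At 39 and 156 nM it was also the only member called higher at T4 (0.84, adjusted p = 0.0103; 14.5% of all genes higher). The gain over controls rests on the scaling and the filter: adjusted p at T1 and T4 was 0.119 and 0.07 in DESeq2, 0.119 and 0.101 in edgeR with median-of-ratios factors, and 0.231 and 0.173 with structural RNAs left out. The folds were -0.07 and 0.18 with TMM from every gene, and the same with no filter on low counts. It was also lost at T1 in 13 of 18 fits that left out 1 library, with a fold of -0.01 without the first 2500 nM library, and at T4 in the 6 that left out a treated one.

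Among genes at the tunnel exit the T4 pooled ratios ran from -1.04 to -3.61. Rpl39, which lines the exit with one of the shortest proteins, had 767 to 1570 CPM in T0 controls and 172 to 455 in treated libraries, and 369 to 1080 against 0 to 231 at T4. No treated library reached the control range at any time (pooled -1.50, -2.59 and -3.61). Rpl17 had -0.92 at T0 and -3.33 at T4, and Rpl23a, a docking site for targeting factors, -1.75 and -2.78. Rpl19, Rpl26 and Rpl35 had smaller T4 ratios of -1.48, -1.04 and -1.34, with adjusted p from 9.99e-06 to 0.00224. Rpl31 was called at T0 and T4 and not at T1 (-0.31, adjusted p = 0.402).

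Of members with known roles outside the ribosome, Rpl13a, which forms part of a complex that silences inflammatory mRNAs, had pooled ratios of -1.19, -1.79 and -1.99. Rpl38, linked to translation of Hox mRNAs, had -1.08, -2.21 and -1.93. Rpl22 was not called at T0 (-0.61, adjusted p = 0.0847) and was called at T1 and T4 (-0.91 and -2.07) with a dose group at 0 each time. The remaining low-count members at T4 were Rpl32 (2 treated counts against 423), Rpl14 (3 against 161) and Rpl37 (1 against 68, not tested). For Rpl14 and Rpl37 the counting intervals of the share ratio, 0.0791 to 1.15 and 0.00763 to 1.76, include no change relative to the other members. Rpl14 was still among the members called lower at T4 in the test relative to the member sum described next. That call is at odds with its interval and rests on 3 treated counts with a dose group at 0.

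To compare members with each other, each count was scaled to the summed member counts of its library and tested across the whole table. On this scale 5 members were called at T0, 10 at T1 and 16 at T4 (46.2, 47.1 and 65.1% of all tested genes, most of which are higher because the member sum itself is lower). Without T0 control replicate 4 or the second 625 nM library the T0 count was 3, and with no filter on low counts the counts were 3 at T0 and 9 at T4. Fewer members were also called at all 3 times with the replicate number as a block, with the counts given in the closing section. Rpl4 was higher at all 3 times, by 1.40 (SE 0.22, adjusted p = 6.59e-07), 1.69 (SE 0.24) and 2.47 (SE 0.25). It was called in each of the 18 fits without 1 library at each time, and also without shallow libraries, with no filter and with the doses as 1 group.
Its share of member counts was 2.49% (381 of 15271, exact 95% interval 2.25 to 2.75) in T0 controls and 6.53% (123 of 1884, 5.46 to 7.74) in treated libraries. At T1 it was 2.87% and 9.82%, and at T4 2.30% (368 of 16032) and 12.6% (97 of 771, 10.3 to 15.1). Per library the T4 share was 1.34 to 3.40% in controls and 7.82 to 16.5% in treated cells, with no overlap, while the T1 ranges of 1.78 to 3.96% and 3.70 to 15.7% overlapped. Intervals cover counting error only.

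Rpl5 was higher relative to the sum at T1 (0.98, SE 0.29) and T4 (1.04, SE 0.34) and was not called at T0 (0.24, adjusted p = 0.496). The T1 call was lost without the second 10000 nM or the second 625 nM library, and the T4 call without the second 2500 nM library. Further members were called higher at 1 time each: Rpl7 (1.161) and Rpl31 (0.80) at T1, and Rpl3 (1.26) and Rpl6 (0.88) at T4. On the low side Rpl37a, which encodes a zinc-finger protein, was called at all 3 times (-2.12, -1.49 and -2.14), as were Rpl35a (-0.64, -1.50 and -1.47) and Rpl41 (-1.096, -1.14 and -0.83). The T4 call of Rpl41 was lost without the first 10000 nM, the second 2500 nM or the first 625 nM library and with the doses as 1 group (adjusted p = 0.165). Rpl39 was lower at T1 and T4 (-1.59 and -1.90). Rpl10 (-1.89), Rpl17 (-2.01) and Rpl23a (-1.33) were called lower at T4 and not at T0 or T1.

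Rpl37a ran from 999 to 2060 CPM in T0 controls (median 1500) and from 0 to 343 in treated libraries (median 179). The T1 ranges were 813 to 1870 and 61.5 to 371, and the T4 ranges 537 to 1040 and 0 to 199. Rpl41, the shortest of the proteins, ran from 2070 to 3550 and from 449 to 1370 at T0, from 1610 to 3020 and from 157 to 1090 at T1, and from 1360 to 2590 and from 49.7 to 871 at T4. For both genes all 6 treated libraries lay below all 12 controls at every time.

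**Figure D3:**
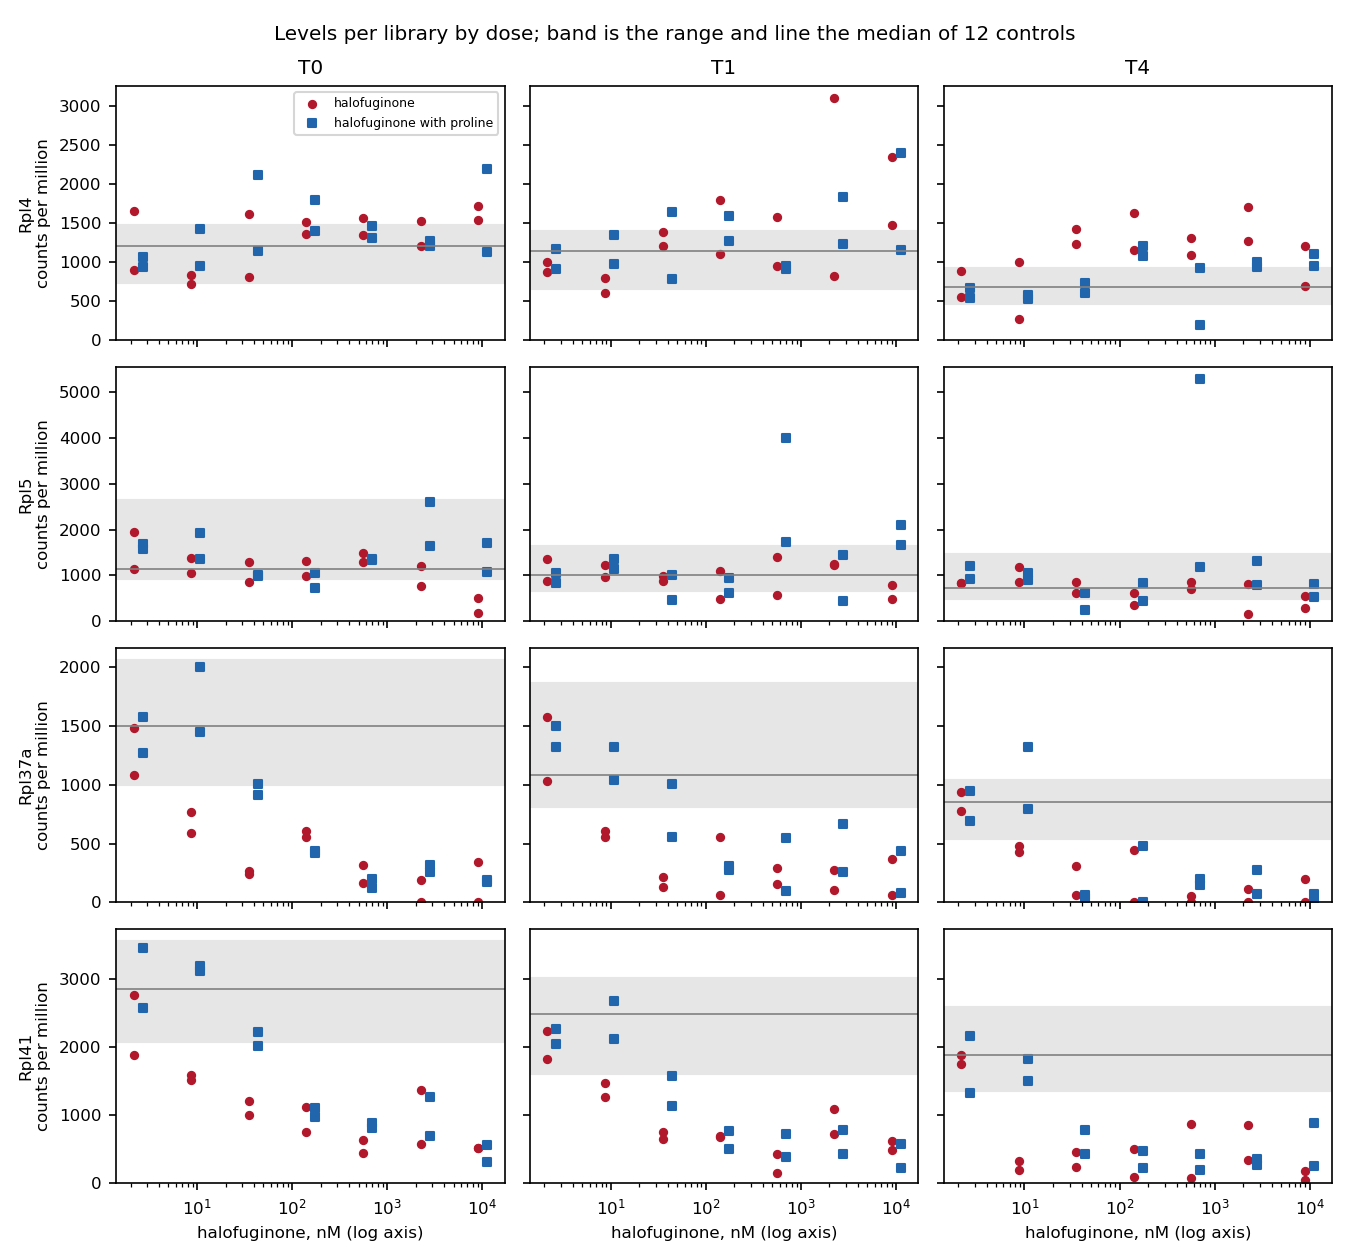
Levels (CPM, scaled to counts without structural RNAs) of Rpl4, Rpl5, Rpl37a and Rpl41 in each treated library by halofuginone dose on a log axis, at T0, T1 and T4. Red circles are without and blue squares with proline, the band and line are the range and median of 12 controls; Rpl37a and Rpl41 drop below the band from 9.7 nM without proline, while most Rpl4 points lie within or above it.

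Rpl37a and Rpl41 were also low at 9.7 nM without proline, a comparison chosen after the values were seen. At that dose without proline both libraries lay below all 12 controls for 2 of 46 members at T0 (3.63% of all genes), 5 of 45 at T1 (6.47%) and 7 of 45 at T4 (9.20%), which is 4.35, 11.1 and 15.6% of members and near the background at T0. Rpl37a and Rpl41 were the only members found at all 3 times. How many of all tested genes were found at all 3 was not counted, so this recurrence has no background beside it. Rpl41 had 1590 and 1510 CPM at T0, 1470 and 1270 at T1 and 191 and 323 at T4, while the members' sum at that dose was 87.4, 86.5 and 75.7% of the control mean. Rpl37a had 770 and 588, 609 and 556, and 478 and 430. With proline at 9.7 nM, Rpl41 had 3190 and 3110, 2670 and 2120, and 1830 and 1500, all within the control range. Rpl37a with proline had 2000 and 1450, 1040 and 1320, and 797 and 1320, none below it. At 39 nM the count without proline was 18 at T0 (11.5% of all genes), 21 at T1 (12.1%) and 30 at T4 (21.1%).

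With proline the drop in the sum came at higher doses. At 39 nM the summed share with proline was 4.04 and 3.91% at T0, 3.54 and 3.14% at T1 and 2.19 and 2.30% at T4, against 2.67 and 2.64%, 1.89 and 2.35%, and 1.22 and 1.099% without it. At T0 and T1 the 39 nM libraries with proline were within the control range, and at T4 both were below every control. Their T4 mean was 73.9% of the control mean, against 38.3% without proline. At 625 nM the libraries with and without proline overlapped at T0 (2.22 and 2.40% with, 2.30 and 2.01% without) and T1 (1.83 and 2.08%, 1.99 and 1.51%). At T4 they did not (1.24 and 1.21% with, 0.79 and 0.95% without).
At 39 and 156 nM combined, 34 members fell without proline and 6 with it at T0 (16.1 and 6.28% of all genes lower). The counts were 31 and 9 at T1 (16.1 and 5.91%) and 36 and 21 at T4 (26.3 and 11.2%). With no filter on low counts they were 16 and 2 at T0, and 2 with proline at T1. Counts in both arms at T0 and T1, and with proline at T4, were also clearly lower with the replicate number as a block (closing section). With 4 treated libraries against 12 controls these counts depend on single libraries: the T0 count without proline was 18 to 22 without either 39 nM library or the second 156 nM one. With proline the counts were 2 or 3 at T0, 1 to 4 at T1 and 2 to 13 at T4 when either 39 nM library or the second 156 nM one was left out.

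The direct test of proline at these doses called 1 member higher at T0 (0.354% of all genes), 2 at T1 (0.563%) and 2 at T4 (2.81%). They were Rpl19 at T0 (1.03, SE 0.30, adjusted p = 0.0467), Rpl23 and Rpl12 at T1 (2.01 and 1.48), and Rpl10 and Rpl17 at T4 (2.33, SE 0.62, and 2.04, SE 0.58). Of the tested members 45 of 46, 40 of 45 and 36 of 45 had positive values, with medians of 0.48, 0.51 and 1.01 against 0.06, 0.01 and 0.05 for all genes. With each of the 8 libraries left out in turn, the T0 call was lost in 7 fits, and the count was 0 or 1 in 7 fits at T1 and in 5 at T4. With no filter on low counts it was 0 at each time.
At 625 nM and above no member was called for proline at any time (0.177, 0 and 0% of all genes higher), with 4, 3 and 6 members at an unadjusted p under 0.05 and no call by DESeq2. At T4 there was 1 call without the second 2500 nM library or the second 625 nM library with proline. Against controls, 42 members fell with proline at T0 (25.0% of all genes lower), 35 at T1 (23.5%) and 41 at T4 (33.5%).

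At high dose Rpl5 had higher median levels with proline than without. Its 6 libraries with proline ranged from 1070 to 2610 CPM at T0, 437 to 4000 at T1 and 519 to 5290 at T4, against 172 to 1500, 495 to 1410 and 156 to 846 without. The differences were 1.04 (SE 0.29, adjusted p = 0.101), 0.90 (SE 0.31, 0.238) and 1.42 (SE 0.36, 0.0997), so none passed the threshold in edgeR. At T4, 74 of its 134 counts came from 1 library at 625 nM, and at T1, 84 of 172 came from 1 library at the same dose. Against controls with proline it was called higher at T1 (0.75, adjusted p = 0.00842; 15.9% of all genes higher) and T4 (0.60, adjusted p = 0.0487; 18.5%). The same 625 nM libraries enter these calls, and how the calls fare without them is not given here. Rpl5 had 7.28, 11.4 and 15.1% of the member counts with proline at the high doses, beside 4.19, 5.41 and 5.84% without. Rpl4 had 6.71, 7.30 and 8.45% with proline, less than Rpl5 each time, beside 6.53, 9.82 and 12.6% without. Both arms share their controls.

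The effect of the high doses was larger at T4 than at T0 for 19 of 46 members, and smaller for none, in a test of the difference of changes (15.9% of all 1468 genes lower). The member median of that difference was -1.20 against -0.46 over all genes. The count was 12 with DESeq2 and 8 without the filter on low counts. Among the called members without a dose group at 0, Rpl17 (-3.11), Rpl10 (-2.92) and Rpl39 (-2.41) were lowest. Rpl4 (-0.03) and Rpl41 (-0.78, adjusted p = 0.216) were not called. From T0 to T1 only Rpl30 was called (-2.48, SE 0.62, adjusted p = 0.0041; 5.81% of all genes lower), with 7 treated counts at T1 and 45 at T0. Without the libraries under 30000 counts that call was lost, and without the second 625 nM or the second 2500 nM library at T1 there were 2 calls.

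Members with longer coding regions tended to have higher ratios. Across members the rank correlation of coding length with the pooled ratio was 0.24 at T0 (n = 46), 0.57 at T1 (n = 45) and 0.36 at T4 (n = 42), and 0.19, 0.54 and 0.31 without Rpl4. It was -0.02, 0.59 and 0.31 over the small-subunit genes, and 0.30, 0.34 and 0.47 over the tested genes outside both subunits that have a coding length. The points share their libraries and depth, and the values are descriptions. In a split made after the values were seen, the 15 longest coding regions (588 to 1257 bases) held 32.3% of member counts in T0 controls and 37.8% at high dose, 32.4 and 44.1% at T1, and 30.4 and 44.5% at T4. Without Rpl4 the T4 values were 28.8 and 36.5%. The per-library T4 ranges for the 15, 26.5 to 33.8% and 36.3 to 52.4%, did not overlap, while those at T0 and T1 did. Without Rpl4 the T4 ranges overlapped too (25.0 to 32.1% and 27.5 to 43.0%).

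The share of proline codons had rank correlations near 0 with the pooled ratio at T0 and T4 (-0.05 and 0.06) and 0.30 at T1. Rpl37a (92 codons) and Rpl41 (25 codons) are the only members with no proline codon, and they are also the 2 that were below every control at 9.7 nM at all 3 times. That comparison was chosen after the values were seen, and a link with proline codons was not tested. Both are among the 15 shortest coding regions (75 to 384 bases), so length and lack of proline codons cannot be told apart in them. Across the other members the share ran up to 9.38% (median of all 46 4.41%).

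**Figure D4:**
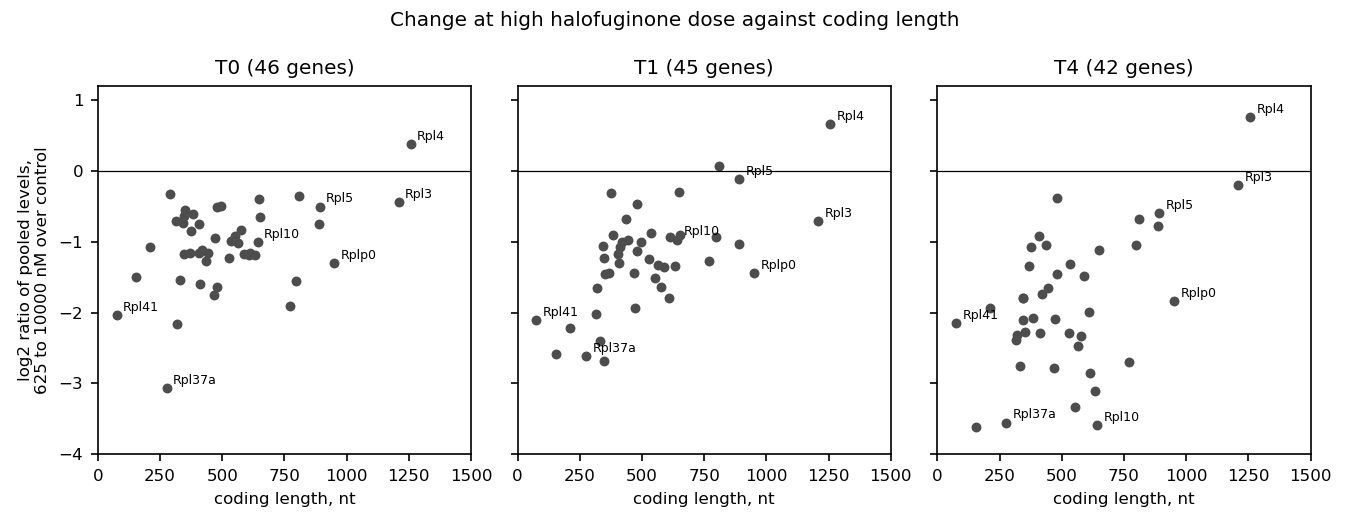
Log2 ratio of pooled levels at 625 to 10000 nM without proline over controls against coding length in nucleotides, 1 point per large-subunit gene, at T0, T1 and T4. Rpl4 has the longest coding region and lies highest at every time, and the genes without proline codons, Rpl37a and Rpl41, are short and low at T0 and T1.

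Of 31 small-subunit genes 30, 27 and 31 were lower at T0, T1 and T4 under high dose (24.3, 23.3 and 35.4% of all tested genes), with medians of -1.54, -1.44 and -2.57 against -0.21, -0.21 and -0.23 for all tested genes. Small-subunit counts per large-subunit count were 0.794 ± 0.0346 (SD, n = 12) in T0 controls and 0.626 ± 0.0591 (n = 6) at high dose. The ratios were 0.775 ± 0.0348 and 0.719 ± 0.105 at T1, and 0.763 ± 0.033 and 0.639 ± 0.129 at T4. The ranges did not overlap at T0 (0.736 to 0.844 against 0.552 to 0.713) and overlapped at T1 (0.728 to 0.849 against 0.556 to 0.84) and T4. Of other TOP mRNAs and elongation factors, 5 fell and 2 rose of 15 tested at T0, 3 and 2 of 14 at T1, and 3 and 1 of 12 at T4. With 24.3, 23.3 and 35.4% of all tested genes lower, these counts are near the background. Fau, which encodes the small-subunit protein eS30, was lower at each time (-2.55 at T4), and Gnb2l1, which encodes the ribosomal scaffold RACK1, was lower at T0 and T4 (-1.69 and -4.27). Tpt1, a classic TOP mRNA, rose at T1 (0.66) and T4 (1.15, SE 0.14, adjusted p = 2.02e-10).

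Of large-subunit assembly factors, at most 2 passed the filter, and Ncl, the nucleolar protein nucleolin, rose at T4 (0.99, SE 0.39, adjusted p = 0.0274) and was not called at T0 or T1. Of the 47 mitochondrial large-subunit genes none was deep enough to be tested against controls.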

How the data were processed

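RNA of 120 BMDM libraries was counted at 3′ ends, and the authors deposited raw counts per gene symbol. BWA and mm10 are named in the submitters' processing notes; for strand, molecular identifiers and the counting program, the entry is: not given in the sources used here. All columns matched a sample label, and none of 240 replicate pairs was identical or within counting noise.

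Levels are CPM after removal of 6 structural RNAs (Lars2, Rmrp, Rn45s, Rn4.5s, Rnu6 and Rpph1). Tests used edgeR 4.0.16 quasi-likelihood fits in R 4.3.3, filterByExpr with a minimum count of 10, and Benjamini-Hochberg adjustment over all tested genes at 0.05. Controls of 3 times were fitted together, and otherwise the 40 libraries of a time; differences between times used 36 libraries. For comparisons among members the library size was the summed member count. Dose groups were averaged within a band (39 and 156 nM, or 625 to 10000 nM).

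The planned scaling was TMM over all genes. Tested on simulated data with known answers, it shifted high-dose folds downwards and called more unchanged genes than TMM from the tested genes, which is used here and leaves a smaller shift. The simulated libraries shared the same composition, Rn45s included, apart from 200 changed genes. Their sizes came from the TMM factors of the tested genes. Real treated and control libraries differ in Rn45s, so the simulation cannot show which scaling suits them. That choice was made after the members' counts under both scalings had been seen, so folds are set beside the median of all tested genes.

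Of the genes that meet the rules below, 2 are not reported here by name; the counts and sums include the member among them. Members and lists were chosen with earlier results of these data known. Named genes are the 3 highest and 3 lowest members of a comparison, members called against the majority, members with the roles described, and up to 3 genes of each other list by adjusted p. Positions are from GENCODE M21 (GRCm38) and start windows from RefSeq (GRCm38.p6). Alternatives were median-of-ratios scaling, DESeq2 1.42.0, no filter, a replicate block, no structural RNAs, no libraries under 30000 counts, each library left out, and 2 chosen after seeing the data: TMM from every gene, and the doses of a band as 1 group.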

Additional observations from a re-analysis of the deposited data

Results flagged for a closer look

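The change at 625 to 10000 nM without proline differed between times for some members, by an edgeR test of the difference itself. Between T0 and T1 there was 1 such member of 45 tested, Rpl30, with a log2 difference of changes of -2.48. Of all 1084 genes in that test 5.81% were lower. The Rpl30 call was lost without the libraries under 30000 counts. Between T0 and T4 there were 19 of 46, all with the larger fall at T4 (15.9% of all 1468 genes lower). Fewer were called with DESeq2 and with no filter on low counts, as given below. Among the 19 the log2 differences were -3.11 for Rpl17, -2.92 for Rpl10, -2.41 for Rpl39, -2.36 for Rpl34, -2.17 for Rpl36 and -1.88 for Rpl30. They were -1.86 for Rpl35a, -1.79 for Rpl18, -1.78 for Rpl24 and -1.44 for Rplp1. In 8 of the 19 there was a dose group with no count, so their counts in the 6 treated T4 libraries are given: 1 for Rpl37, 2 for Rpl12, 2 for Rpl32, 3 for Rpl14, 4 for Rpl15, 5 for Rpl22, 9 for Rpl13 and 12 for Rpl13a. No labelled group held between 4 and 10 libraries, so single libraries were not screened as outliers.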

How the results depend on the processing

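Depth limits these results: the treated T4 libraries at high dose hold 771 member counts in 6 libraries. Counts of members called are given below with the value reported above in brackets, and the cause of each shift was not tested except where fewer libraries or degrees of freedom enter by construction. With median-of-ratios scaling, LPS T4 gave 20 [34], proline at 39 and 156 nM (mid doses) at T0 0 [1], and mid doses with proline at T1 16 [9]. With DESeq2 these were 20, 0 and 14, proline at mid doses at T4 gave 5 [2] and the T4 minus T0 difference 12 [19]. With no filter on low counts, LPS gave 0 [4] at T1 and 4 at T4, and 1 [4] relative to the member sum at T4. Mid doses at T0 gave 16 [34] without and 2 [6] with proline, mid doses with proline at T1 2, and proline at mid doses 0, 0 and 0 [1, 2 and 2]. High doses relative to the member sum gave 3 [5] at T0 and 9 [16] at T4, and the T4 minus T0 difference 8. Leaving out structural RNAs gave 0 for proline at mid doses at T0. Without libraries under 30000 counts, proline gave 1 [0] at high and 0 [2] at mid doses at T4, and the T1 minus T0 difference 0 [1].

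No label says that a replicate number marks a shared source, and not every same-numbered pair correlated, so the numbers were not taken to pair the samples. Over 36 pairs of controls with the same number at different times the mean correlation of deviations was 0.088 (-0.063 to 0.359), with 9 over 0.1. Over 396 pairs with different numbers it was -0.008, with 31 over 0.1. Of 36 controls, 14 correlated best with their own number, a hint from the data and not the design. The number expected without pairing is not given here, so the strength of that hint was not tested. Same-numbered treated libraries of a time had a mean of 0.001 over 273 pairs. Treated and control libraries share 2 numbers. With the replicate block, high doses gave 21 [34] at T0 and 22 [35] at T1, and 21 [35] at T1 with proline. Mid doses gave 13 [34] at T0 and 14 [31] at T1, and with proline 2 [6], 4 [9] and 3 [21] at T0, T1 and T4. Proline at mid doses gave 0 at T0 and 1 at T1, and high doses relative to the member sum 3 [5], 4 [10] and 9 [16]. Rpl5 at high dose at T1 turned from -0.15 to 0.13.

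Of the 2 alternatives chosen after seeing the data, TMM from every gene gave 0 and 8 for LPS T1 and T4, 1 [0] for proline at high and 2 [1] at mid doses at T0, 20 [9] for mid doses with proline at T1 and 2 [1] for the T1 minus T0 difference. Rpl4 at high dose at T1 turned from 0.56 to -0.07 with it, and to -0.07 with no filter. The doses as 1 group gave 3, 3 and 4 for mid doses with proline at T0, T1 and T4, and 0, 0 and 6 for proline at mid doses.

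With single libraries left out, high doses gave 32 to 37, 30 to 37 and 41 to 43 members at T0, T1 and T4, and 38 to 42, 32 to 38 and 37 to 41 with proline. Mid doses gave 18 to 35, 21 to 32 and 29 to 37, and with proline 2 to 8, 1 to 10 and 2 to 22. Proline gave 0 to 0, 0 to 0 and 0 to 1 at high and 0 to 1, 0 to 2 and 0 to 3 at mid doses. LPS gave 3 to 8 and 33 to 43, and relative to the member sum 0 to 1 and 1 to 5. High doses relative to the member sum gave 3 to 6, 7 to 11 and 11 to 17, and the differences from T0 1 to 2 at T1 and 15 to 20 at T4.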
